A study of Mus musculus with 2 samples.

Results

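The replication-dependent histone genes are the protein-coding genes whose symbols begin with Hist1h, Hist2h, Hist3h or Hist4 in GENCODE M21 on GRCm38/mm10. There were 67 of them among 21938 protein-coding genes on the assembled chromosomes. The rule used symbols only and no measured value. Open chromatin at their starts was read in 43 of the 67, for a reason given below with the counts for each locus.

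Replication-dependent histone genes encode the core histones H2A, H2B, H3 and H4, around which DNA is wrapped in the nucleosome, and the linker histone H1, which binds the DNA between nucleosomes. They are transcribed in S phase, lie together in clusters, mostly lack introns, and give mRNAs that end in a stem-loop bound by SLBP in place of a poly(A) tail. NPAT, a target of cyclin E and CDK2, gathers on their promoters in histone locus bodies. A few members are mainly used in male germ cells, among them Hist1h1t, Hist1h2aa and Hist1h2ba, which are called testis-type here.

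The samples were hearts of wildtype FVB mouse embryos at E11.5 (49 to 51 somites), in 2 replicates with 2 hearts each, and they share 1 genotype, 1 stage and no treatment. Accessible DNA was cut and tagged in about 50000 nuclei per replicate with Tn5 transposase (ATAC-seq), and the libraries were read as single ends of 50 bp. The design was meant to find open chromatin across the genome of the heart. With 1 group, no comparison between conditions and no test over samples was possible, and all values below are descriptions.

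Each replicate has its own peak list, with 118027 peaks in replicate 1 and 114783 in replicate 2. The value used throughout is fold enrichment, the authors' ratio of the read pileup at a peak's summit to the genome-wide background of that library. A peak counted for a gene where at least 1 bp of it lay within 1 kb of the annotated start, and the highest such peak gave the gene its value. The lists hold no read totals, so depth is unknown and no counting interval was computed. Fold enrichment averages over all nuclei of the heart, so a site open in some cells and a site partly open in all of them cannot be told apart.

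The running numbers in the peak names skip 1726 numbers in replicate 1 and 1803 in replicate 2. A gene whose window reached such a break in either list was not analysed here, because a missing peak could not be told from a missing row. This left 11 of 23 members in the first Hist1 locus, 29 of 31 in the second, none of the 10 in the Hist2 locus, both in the Hist3 locus and the single Hist4 gene. By type, 4 of 6 H1 genes, 10 of 18 H2A genes, 11 of 18 H2B genes, 8 of 12 H3 genes and 10 of 13 H4 genes were analysed. Among all protein-coding genes, 20594 of 21938 were analysed.

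Markers gave a limited check of the tissue label. Peaks of both replicates lay at the start of 6 of 8 heart muscle genes, a share near the 66.8% of all protein-coding genes with such a peak, with 25.0 and 20.9 for Tnnt2 (cardiac troponin T) and 25.8 and 22.1 for Actc1 (cardiac actin), in replicates 1 and 2. At the annotated start of the transcription factor gene Nkx2-5 there was no peak in either replicate, and at that of Tbx5 there was 1 in replicate 1 only, at 5.16. Endothelial genes had peaks in 3 of 4, epicardial genes in 3 of 3, blood genes in 2 of 3 and nerve genes in 1 of 3. Of 3 liver genes and 5 testis germ cell genes, 0 had a peak in both.

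Sequences from the GRCm38 reference, which is C57BL/6J and not FVB, are given for the promoters on which the results turn. They are the stretches between the facing starts of the H2A-H2B pairs with the highest and the lowest peak, the 250 bases before the start of the H4, H3 and H1 genes with the highest peak, and those of testis-type genes without a peak in both replicates. Capitals mark the letters of 5 motifs on either strand. The motif CCAAT is the box bound by the factor NF-Y, which is frequent in promoters of cell cycle genes. The motif TATAAA is the box at which the transcription machinery can assemble. The motif ATTTGCAT is the octamer, which the factor OCT1 binds in H2B promoters. The motif AAACACA is known as the H1 box for its place before H1 genes. The motif GTCCG holds the core letters of the H4 promoter site of the factor HINFP. No motif contains another. The pair with the highest peak lies at chr13:23683949-23684198, on the plus strand.
Hist1h2ac/Hist1h2bc: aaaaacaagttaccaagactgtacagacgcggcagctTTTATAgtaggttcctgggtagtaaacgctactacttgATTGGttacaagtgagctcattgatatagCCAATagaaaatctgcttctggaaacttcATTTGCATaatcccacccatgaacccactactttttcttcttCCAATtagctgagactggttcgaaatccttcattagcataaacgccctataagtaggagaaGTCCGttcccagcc
The pair with the lowest peak lies at chr13:21716144-21716421, on the plus strand.
Hist1h2bl/Hist1h2ai: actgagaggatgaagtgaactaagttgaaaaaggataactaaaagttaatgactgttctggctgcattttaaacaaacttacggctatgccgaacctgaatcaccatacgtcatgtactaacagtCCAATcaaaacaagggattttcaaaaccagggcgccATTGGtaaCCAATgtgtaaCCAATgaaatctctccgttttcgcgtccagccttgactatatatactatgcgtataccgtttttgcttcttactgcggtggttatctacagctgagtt
The stretch before Hist4h4 lies at chr6:136804416-136804665, on the minus strand.
Hist4h4: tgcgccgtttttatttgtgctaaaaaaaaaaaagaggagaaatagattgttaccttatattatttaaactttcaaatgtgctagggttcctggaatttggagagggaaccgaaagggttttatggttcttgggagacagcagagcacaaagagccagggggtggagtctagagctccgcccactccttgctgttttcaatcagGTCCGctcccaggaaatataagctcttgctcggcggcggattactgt
The stretch before Hist1h3g lies at chr13:23535172-23535421, on the plus strand.
Hist1h3g: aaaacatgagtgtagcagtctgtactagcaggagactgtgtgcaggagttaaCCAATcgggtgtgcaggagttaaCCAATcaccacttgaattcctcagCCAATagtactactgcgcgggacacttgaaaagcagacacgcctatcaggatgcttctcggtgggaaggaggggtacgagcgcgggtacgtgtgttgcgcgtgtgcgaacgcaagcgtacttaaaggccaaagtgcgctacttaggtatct
The stretch before Hist1h1c lies at chr13:23738558-23738807, on the plus strand.
Hist1h1c: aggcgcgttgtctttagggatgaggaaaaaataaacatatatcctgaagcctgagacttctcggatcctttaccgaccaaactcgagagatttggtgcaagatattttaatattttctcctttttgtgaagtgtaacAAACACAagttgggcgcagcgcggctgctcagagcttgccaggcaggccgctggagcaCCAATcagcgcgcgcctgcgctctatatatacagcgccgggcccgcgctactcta
The stretch before the testis-type Hist1h2aa, which faces Hist1h2ba, lies at chr13:23934212-23934461, on the plus strand.
Hist1h2aa: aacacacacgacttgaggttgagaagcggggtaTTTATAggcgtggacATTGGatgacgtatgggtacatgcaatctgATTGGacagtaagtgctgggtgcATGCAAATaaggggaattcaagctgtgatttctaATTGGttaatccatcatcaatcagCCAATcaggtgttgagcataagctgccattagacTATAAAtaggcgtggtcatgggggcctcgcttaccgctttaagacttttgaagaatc
The stretch before the testis-type Hist1h1t lies at chr13:23695564-23695813, on the plus strand.
Hist1h1t: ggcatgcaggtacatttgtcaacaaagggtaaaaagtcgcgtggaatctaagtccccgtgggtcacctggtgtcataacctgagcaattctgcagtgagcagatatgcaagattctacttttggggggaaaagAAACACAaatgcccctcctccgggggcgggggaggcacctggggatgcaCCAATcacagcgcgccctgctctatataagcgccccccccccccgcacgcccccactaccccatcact

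The promoter letters differed by histone type. In the 250 bases before the start, CCAAT was found on either strand in 34 of the 43 members, beside 36% of all 21938 protein-coding promoters of the same length. It was present in all 10 H2A and all 11 H2B members, in 7 of 8 H3 and 3 of 4 H1 members, but in 3 of 10 H4 members. The H3 and H1 genes without it, Hist1h3f and Hist1h1d, have records that start 433 and 1828 bp before the coding region, so for them the bases searched may not be the promoter in use. GTCCG was found in all 10 H4 members, with the nearest copy 6 to 75 bases before the start (median 44), and in 21.5% of all promoters. Outside H4 it was found in 4 H2A, 2 H2B, 1 H3 and 0 H1 members.

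The octamer was found in 6 of 10 H2A and 6 of 11 H2B members and in 0 members of the other types, beside 1.45% of all promoters. Facing genes share it: 4 of the 7 analysed pairs hold 1 octamer between their starts, which is counted for both genes. TATAAA was found in 21 of 43 members, beside 2528 of all 21938 promoters. AAACACA was found in 6 of 43 members, beside 5.66% of all promoters, namely in 2 of 4 H1 (Hist1h1c and Hist1h1t), 1 of 10 H2A, 2 of 11 H2B, 1 of 8 H3 and 0 of 10 H4 members. A match or its lack is a description of these letters only. The testis-type stretch before Hist1h2aa, which had no peak in either replicate, holds 4 CCAAT, 2 TATAAA and 1 octamer.

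Members had less G and C before their start than other genes, with a median of 43.6% beside 54% over all protein-coding genes. The ratio of CpG observed to that expected from their C and G was higher, with a median of 0.696 beside 0.486. The highest ratio was that of Hist1h4a at 1.13, and the lowest was 0 at Hist1h1d, whose record starts 1828 bp before its coding region. After the stop codon, letters that fit the histone stem-loop were found within 150 bases in all 43 members, testis-type genes included, starting 24 to 56 bases after the stop (median 32). The same search was positive in 68 of 21853 protein-coding genes (0.311%), a set that includes the histone genes themselves. The share outside the histone genes was not computed.

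Nearly all analysed histone promoters were open in the embryonic heart. A peak lay within 1 kb of the start in both replicates for 39 of 43 members, which is 90.7%, beside 66.8% of the 20594 protein-coding genes analysed. The members without one were Hist1h1d and the testis-type Hist1h1t, Hist1h2aa and Hist1h2ba. The median fold enrichment of the 39 members was 26.3 in replicate 1 and 29.2 in replicate 2, beside 24.2 and 24.4 for all protein-coding genes with a peak in both. Averaged over the replicates, members reached from 10.5 at Hist3h2ba to 36.9 at Hist1h2ac and Hist1h2bc, with a median of 27.8. Among all promoters with a peak in both, the members lay at a median percentile of 60.2 and a lowest of 17.2.

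**Figure D1:**
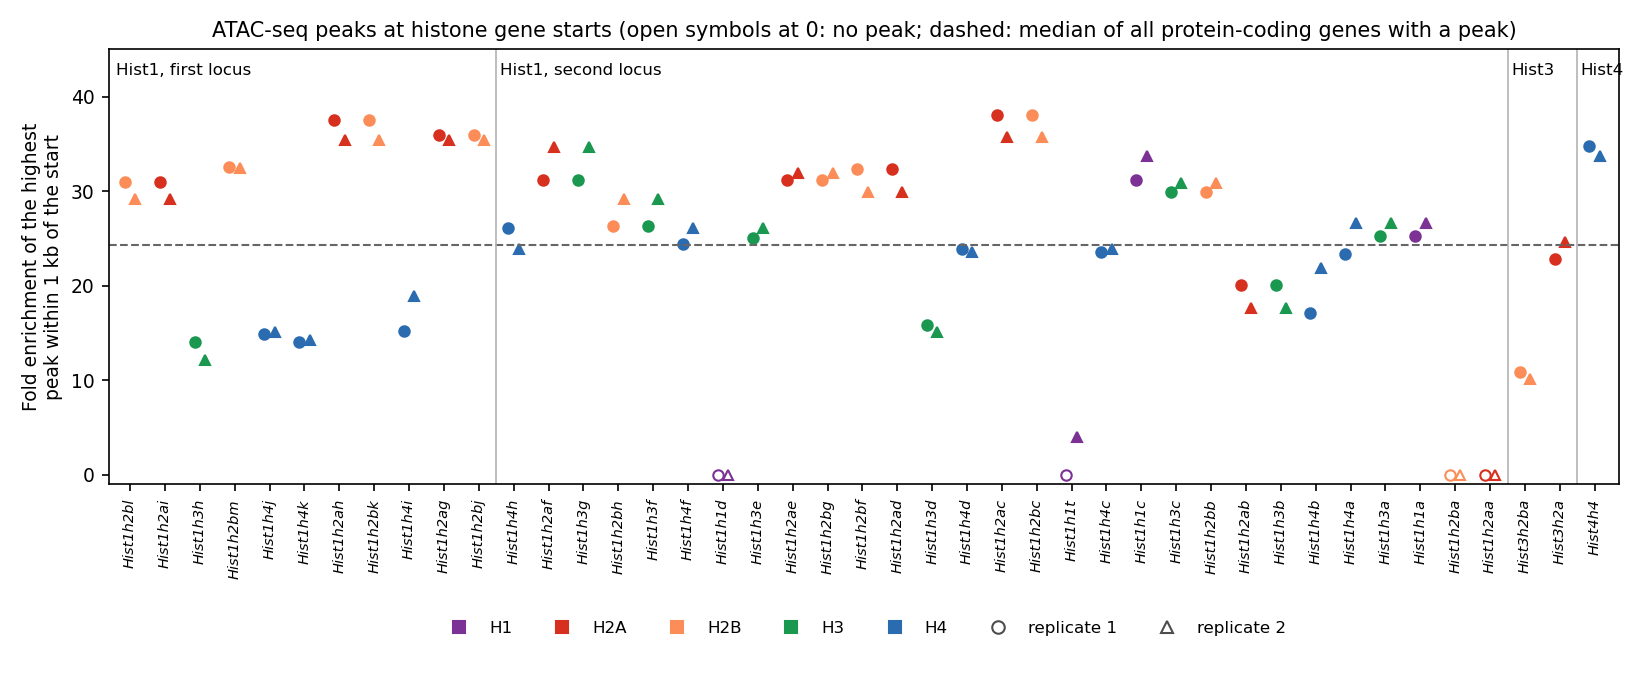
Fold enrichment (vertical axis) of the highest peak within 1 kb of each analysed member, in genomic order within each locus, as circles for replicate 1 and triangles for replicate 2 with colours for histone type. Most members sit between 23 and 38 in both replicates, while Hist1h1d, Hist1h2aa and Hist1h2ba have no peak and Hist1h1t has one at 4.02 in replicate 2 only.

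The replicates agreed closely at these genes. The ratio of replicate 2 to replicate 1 lay between 0.854 at Hist1h3h and 1.28 at Hist1h4b. The standard deviation of its log2 was 0.13 over the 39 members and 0.22 over all protein-coding genes with a peak in both. Replicate 2 was higher in 20 of 39 members. Differences between members of a few units of fold enrichment were therefore of the size of the spread between replicates.

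Peaks were shared between neighbouring genes, so members are not independent of each other. The 39 members rested on 28 different highest peaks in replicate 1, of which 11 served 2 members each. In replicate 2 they rested on 27, of which 10 served 2 members and 1 served more. The start itself was covered by a peak in all 39 members in both replicates. A summit lay within 250 bp of the start in 33 members in replicate 1 and 31 in replicate 2. For several members the highest peak of the window had its summit nearer to another member's start, and for those described singly below the value at the nearest summit is given too.

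Most analysed members of both Hist1 loci had a peak. In the first locus (chr13:21716143-22043214, between the outermost starts), all 11 analysed members had a peak in both replicates, with medians of 31.0 and 29.2. In the second locus (chr13:23531050-23934462), 25 of 29 had one, with medians of 26.3 and 29.2. The spread within the first locus was wide, since its H2A and H2B genes reached 29.2 to 37.5 and its H3 and H4 genes 12.1 to 18.9, with no overlap between them in either replicate.

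Peaks away from the members had lower medians, though some were high. In the second locus, 26 of 45 peaks in replicate 1 and 23 of 42 in replicate 2 had their summit within 1 kb of a member's start, analysed or not, and these had a median fold enrichment of 23.5 and 23.9 beside 5.70 and 5.28 for the rest, which reached up to 23.9 and 24.1. The 10 highest peaks of that locus all lay at members in both replicates. In the first locus, 12 of 48 and 14 of 51 summits lay at members, with medians of 14.5 and 13.3 beside 6.93 and 6.54 for the rest, which reached up to 28.8 and 26.4. Of the 10 highest peaks there, 4 and 6 lay at members. Peaks in the breaks of the lists, which lie at 12 members of the first locus and 2 of the second, are not part of these counts. Of the other protein-coding genes within these spans, 2 of 3 in the first and 2 of 6 in the second had a peak in both replicates.

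The small loci held 3 members. Hist4h4 on chromosome 6, an H4 gene that stands alone, had 34.8 in replicate 1 and 33.7 in replicate 2 (34.2 ± 0.765, SD, n = 2), the highest value of any H4 member. The replication-independent H2afj starts less than 4 kb away from it and had its own 30.4 and 32.4. In the Hist3 locus on chromosome 11, Hist3h2a had 22.8 and 24.6, and Hist3h2ba had 10.9 and 10.1, the lowest of all members with a peak in both replicates. Both replicates placed the Hist3h2ba summit 308 and 309 bp after its start.

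The histone types differed in height. Over the members with a peak in both replicates, the median of the replicate means was 31.6 for H2A (9 genes) and 31.4 for H2B (10 genes), 25.8 for H3 (8 genes), 23.8 for H4 (10 genes) and 29.2 for H1 (2 genes). With the peak whose summit lies nearest to the start in place of the highest, the medians were 31.1, 31.3, 25.3, 23.8 and 28.5, in the same order of H2A and H2B above H3 and H4. The nearest summit was still that of a neighbour for some members, such as Hist1h3c. The order of H2A and H2B changed between replicates (31.2 against 31.8 in replicate 1, 31.9 against 31.4 in replicate 2), and H3 and H4 lay close, at 25.1 and 23.5 in replicate 1 and 26.4 and 23.8 in replicate 2. Because paired H2A and H2B genes have the same peak, their medians are not separate observations.

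**Figure D2:**
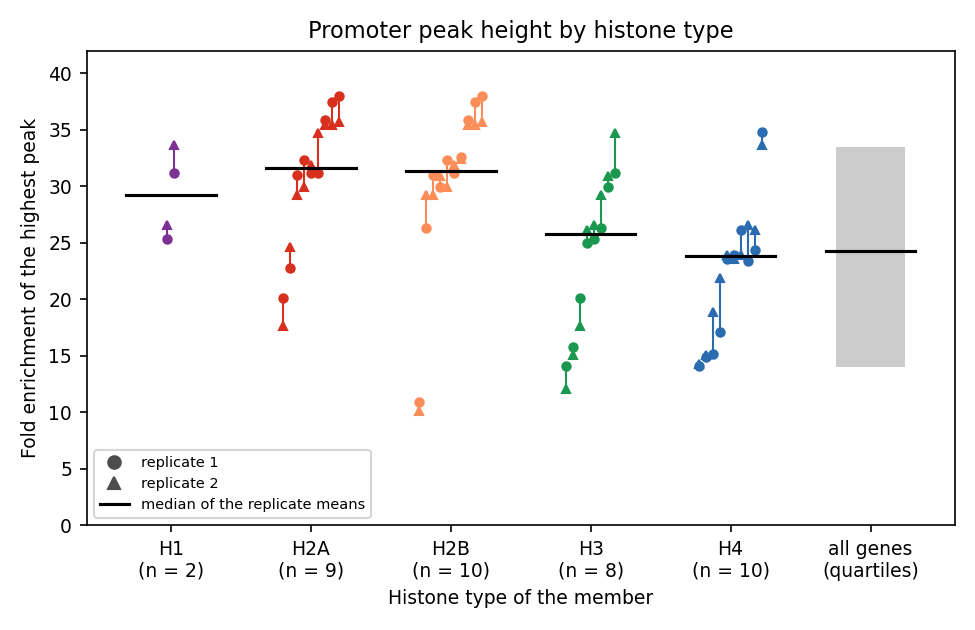
Fold enrichment (vertical axis) of the highest promoter peak by histone type, with the replicates of a member joined by a line, the median of the replicate means as a black bar and the quartiles of all protein-coding genes as a grey box. Most H2A and H2B genes lie above 29 while most H3 and H4 genes lie below 27, and each type has members on the other side.

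H2A and H2B genes stood mostly as divergent pairs, with starts that face away from each other across a shared promoter. Of 12 such pairs with at most 1 kb between the starts, 7 were analysed. In 6 of the 7, a single peak covered both starts in both replicates, and its summit lay between the starts. In the remaining pair, the testis-type Hist1h2ba and Hist1h2aa, whose starts have 305 bases between them, there was no peak at all.

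The pair Hist1h2ac and Hist1h2bc, with 250 bases between the starts, was the highest at 38.0 in replicate 1 and 35.7 in replicate 2. Next were Hist1h2ah and Hist1h2bk with 37.5 and 35.4, and Hist1h2ag and Hist1h2bj with 35.9 and 35.4. The lowest 3 of the 6 were Hist1h2ae and Hist1h2bg with 31.2 and 31.9, Hist1h2bf and Hist1h2ad with 32.3 and 29.9, and Hist1h2bl and Hist1h2ai with 31.0 and 29.2. In replicate 1 the highest 3 lay at 35.9 to 38.0 and the lowest 3 at 31.0 to 32.3. In replicate 2 they lay at 35.4 to 35.7 and at 29.2 to 31.9. The sets were formed by ranking the pairs on the mean of these same values, so the gap between them is no separate result. Within each of these sets of 3, the order changed between replicates or the pairs differed by no more than the replicates of a single pair.

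The summits were placed alike by both replicates. At Hist1h2ah and Hist1h2bk they lay 0 and 1 bp from the middle of the stretch, and at Hist1h2ac and Hist1h2bc 10.5 and 16.5 bp to the H2A side. The largest shift between replicates was at Hist1h2ae and Hist1h2bg, from 16 bp on one side of the middle to 33 bp on the other. A CCAAT lay within 9 bp of the summit in both replicates in 5 of the 6 pairs, counted to the middle of the motif, and 40 and 89 bp away at Hist1h2ae and Hist1h2bg. These stretches hold 2 to 5 CCAAT each, 3 in the printed Hist1h2ac and Hist1h2bc stretch and 4 in the Hist1h2bl and Hist1h2ai one. The stretch of the testis-type pair, which had no peak, holds 4.

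**Figure D3:**
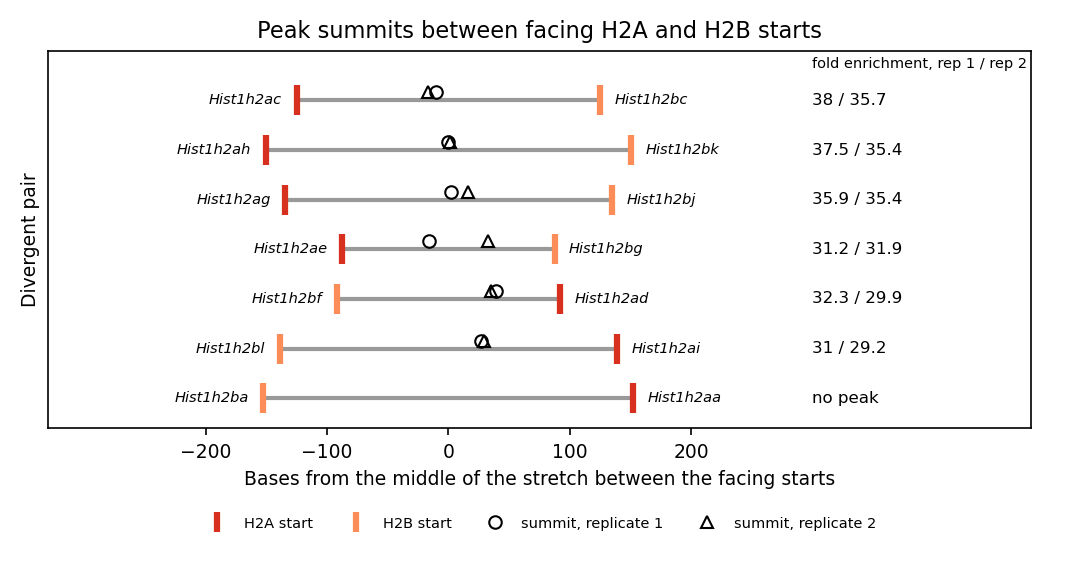
Stretches between the facing starts of the 7 analysed H2A-H2B pairs, drawn to scale in bases from their middle (horizontal axis) with the peak summits of both replicates and the fold enrichment at the right. In 6 pairs both summits lie between the starts, within 40 bases of the middle, and the testis-type pair has no peak.

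Outside the pairs, the H2A and H2B genes were more varied. Hist1h2bm had 32.6 and 32.4, and the H2A pseudogene Hist1h2aj, which starts 236 bp from it, has the same peak. Hist1h2ab was the lowest H2A gene of the Hist1 loci at 20.1 and 17.6, where the nearest summit in replicate 1 had 14.9 and the higher one belonged to Hist1h3b. Hist1h2af took 31.2 and 34.7 from Hist1h3g next to it. Its own summit, 125 bp before the start, was separate in replicate 1 with 17.1, while in replicate 2 a single peak of 3061 bp ran over both genes. Hist1h2bh was the lowest H2B gene of these loci at 26.3 and 29.2, from a peak it shares with Hist1h3f, whose summit lay 1060 and 1066 bp from the Hist1h2bh start. The summits nearest to Hist1h2bh had 5.7 and 3.27.

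The 8 analysed H3 genes ranged widely. Hist1h3g was the highest at 31.2 in replicate 1 and 34.7 in replicate 2, with its summit 104 and 80 bp before the start. Hist1h3c followed with 29.9 and 30.9, from a long peak whose summit lay 916 and 1069 bp before its start, closer to Hist1h2bb. The lowest were Hist1h3h at 14.1 and 12.1 and Hist1h3d at 15.8 and 15.1. In replicate 2 the value of Hist1h3h came from a summit 696 bp from its start and nearer to Hist1h2ai, and its nearest summit there had 6.54. The highest and lowest H3 genes were picked by the mean of these same replicate values, so the gap between them is no separate result. All H3 genes named here except Hist1h3h lie in the second locus, and the first locus has no other analysed H3 gene.

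The 10 analysed H4 genes all had a peak in both replicates, and the 9 in the Hist1 loci were lower than each of the 6 pairs with a peak. In the first locus Hist1h4k had 14.1 and 14.3, Hist1h4j had 14.9 and 15.1, and Hist1h4i had 15.2 and 18.9. In the second locus the 6 H4 genes lay between 17.1 and 26.1 in replicate 1 and between 21.9 and 26.6 in replicate 2, with the highest replicate means at Hist1h4f (24.4 and 26.1), Hist1h4a (23.4 and 26.6) and Hist1h4h (26.1 and 23.9). Hist1h4h was the highest of them in replicate 1 and Hist1h4a in replicate 2, so their order is within the spread between replicates. The H4 genes of the first locus were below those of the second in both replicates, without overlap. Hist4h4, alone in its locus, was above both.

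Of the H1 genes, Hist1h1c and Hist1h1a had a peak in both replicates. Hist1h1c had 31.2 and 33.7, from peaks of 2505 and 2536 bp that covered the whole gene and whose summit lay 968 bp after the start in replicate 1 and 84 bp after it in replicate 2. Hist1h1a had 25.3 in replicate 1, with a summit 59 bp after the start, and 26.6 in replicate 2 from a neighbour's peak. Its own peak in replicate 2 had 23.6, with the summit 83 bp after the start. Hist1h1d had no peak within 1 kb of its annotated start, but its coding region begins 1828 bp further on and had a peak of 22.5 and 23.4 within 1 kb, which covered that region in full.

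No testis-type gene had a peak in both replicates. The count was 0 of 3, beside 39 of the 40 other members and 66.8% of the protein-coding genes analysed. The 3 genes are not independent of each other, because Hist1h2ba and Hist1h2aa face each other across the same stretch. Hist1h1t had no peak in replicate 1, with the nearest one 1634 bp from its start, and a low peak of 4.02 in replicate 2 that covered the start. At Hist1h2ba and Hist1h2aa, which share their promoter, the nearest listed peaks lay over 17 kb away in both replicates, at a fold enrichment of 12 and 11.3. The 5 testis germ cell markers, Prm1, Prm2, Tnp1, Acrv1 and Ddx4, had no peak at their starts in either replicate. All 3 testis-type genes have at least 1 CCAAT before the start and the stem-loop after the stop codon.

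**Figure D4:**
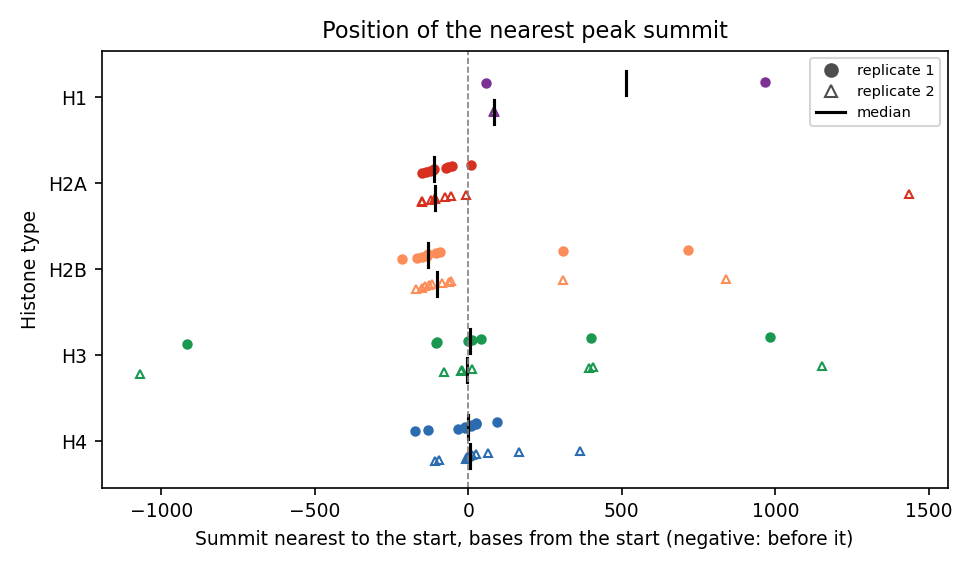
Position of the peak summit nearest to the start (horizontal axis, bases, negative before the start) for the 39 members by histone type, filled for replicate 1 and open for replicate 2, with medians as black bars. Most summits of H2A and H2B genes lie before the start, those of H4 genes lie on both sides of it, and those of H3 genes spread from 1069 bases before it to 1151 after it.

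The position of the summit also varied with type. Its median for H2A was 113 bp before the start in replicate 1 and 109 bp before it in replicate 2, and for H2B 132 and 102 bp before it. For H4 it was 1 bp before the start in replicate 1 and 6.5 bp after it in replicate 2, with a range from 172 bp before to 365 bp after over both. For H3 the summits spread on both sides of the start, from 916 bp before to 984 bp after in replicate 1 and from 1069 bp before to 1151 bp after in replicate 2, so that the medians of 5 bp after and 3 bp before stand for no common position. Summits lay before the start in 8 of 9 H2A and 8 of 10 H2B genes in each replicate, and in 5 and 4 of 10 H4 genes. For paired genes the position follows from the shared summit between the starts. The annotated starts limit these distances, since for 6 analysed members the record begins at the first coding base. Among those 6 are Hist1h2ba and Hist1h2aa, which have no peak and so no distance here.

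The coding regions of most members could be read only in part with 50-base reads. Of all 50-base stretches, those found once in the GRCm38 genome on either strand made up a median of 27.7% of the coding region over the 43 members. The medians were 18.5% for H2A, 26.1% for H2B, 24% for H3, 30.2% for H4 and 89% for H1, and 0% for Hist1h2ag and Hist1h2ad. Before the start the picture was the opposite, since all such stretches were unique in 41 of 43 members, the exceptions being Hist1h4j (85.6%) and Hist1h4k (88.6%). Within 1 kb on each side the median was 82.9%, beside 100% over 1093 other protein-coding genes taken at even steps along the genome.

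**Figure D5:**
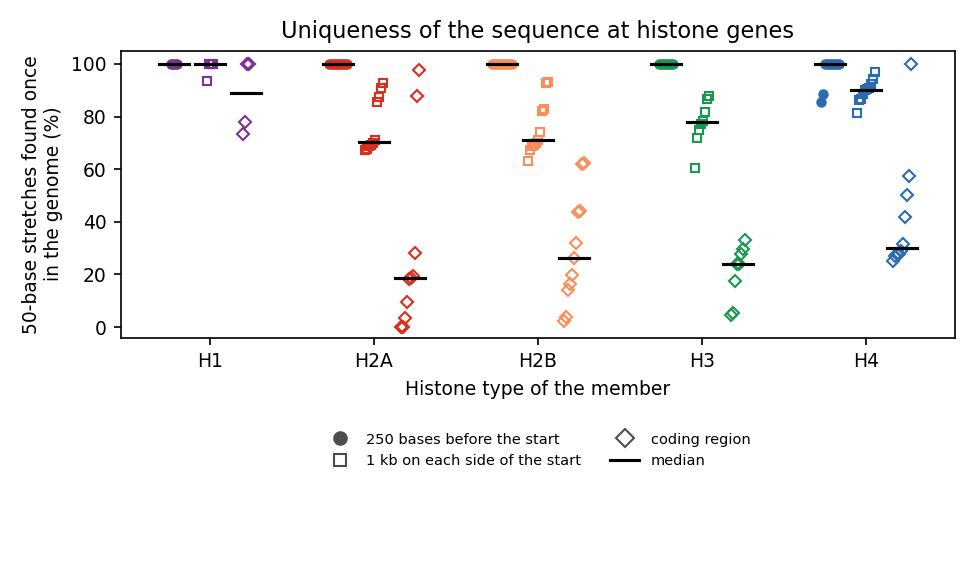
Share of 50-base stretches that occur once in the genome (vertical axis, percent) for each analysed member by histone type, in the 250 bases before the start, the window of 1 kb on each side and the coding region, with medians as black bars. Upstream stretches are at 100% for 41 of 43 members, while coding regions of H2A, H2B, H3 and H4 genes have medians between 18.5% and 30.2%.

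The reach of the peaks into the coding regions is given beside these shares. Peaks covered a median of 67.4% of the H2A coding region in replicate 1 and 72.4% in replicate 2, and the whole of it in 3 of 9 genes in each. The median was 100% for H2B in both replicates, and 91.4% and 100% for H3. Peaks covered the whole H4 coding region in 9 and 10 of 10 genes. Some genes with a low unique share in the coding region were also covered little in replicate 1. Hist1h2ad and Hist1h2ag, both with 0% unique, were covered to 42.8% and 59%, and Hist1h3b, with 4.46%, to 33.1%. Hist3h2a, with 87.7% unique, was covered in full. Not every gene followed this order, since Hist1h2ac, with 18.2%, was covered in full in both replicates. Hist1h2ab, with 28.2%, was covered to 67.4% in replicate 1. The types with the highest peaks, H2A and H2B, had the lowest unique share in the window, with medians of 70.5% and 71% beside 90.1% for H4 and 77.7% for H3. The 2 H4 genes with stretches before the start that are not unique were also the lowest H4 genes, whereas Hist1h4i, next in height, was fully unique there. The part of uniqueness in these values was not tested.

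Genes whose products act on histone genes or their mRNAs were read the same way. Of 10 listed, 9 were analysed and 8 had a peak in both replicates, beside 66.8% of all protein-coding genes, with a median of 36.2 beside 24.3 for all genes and 27.8 for the members. Npat, which encodes the histone locus body factor, had 46.4 in replicate 1 and 44.0 in replicate 2, and Casp8ap2 (FLASH), which binds it and serves histone mRNA processing, had 49.2 and 51.5. Ccne1 and Ccne2, the cyclin E genes, had 47.0 and 42, and 37.2 and 35.9. Slbp had 36.1 and 35.2, Cdk2 had 31.5 and 32.4, and Lsm10 and Lsm11 of the U7 snRNP, which takes part in cutting histone mRNA 3′ ends, had 30.7 and 30.9, and 27.4 and 32.9. Zfp473 had no peak within 1 kb of its start in either replicate.

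The replication-independent histone genes spanned a wider range than the members. Of 11 listed, 10 were analysed and 9 had a peak in both replicates, beside 66.8% of all protein-coding genes. Their values ran from 8.24 to 54.8 with a median of 27.4, beside 24.3 for all genes with a peak in both. H2afz (H2A.Z) had 54.1 and 55.6 and H2afv, its close relative, 45.1 and 47.0, above every member. H3f3a, one of the H3.3 genes, had 30.7 and 32.2, while H3f3b, the other, had no peak within 1 kb of its annotated start. Cenpa, the centromeric H3, had 29.9 and 24.9. The linker histone genes H1f0 (8.69 and 7.79) and H1fx (10.6 and 10.1) were below every H1 member with a peak in both replicates, and the macroH2A genes H2afy (18.2 and 19.6) and H2afy2 (13.6 and 7.79) were below the H2A median.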

How the data were processed

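Wildtype FVB hearts at E11.5 were profiled by ATAC-seq in 2 replicates. The authors used Trim Galore 0.6.6 with cutadapt for trimming, Bowtie2 2.4.2 for mapping to mm10 and SAMtools 1.12 to take out duplicates and poorly mapped reads. MACS2 was then run on every replicate alone, against the genome-wide background. Reads from near-identical histone genes can be lost at the mapping filter. In the deposited lists, fold enrichment is the ratio of summit pileup to background, and the −log10 p-value and −log10 q-value are the authors' values at the summit. The deposited score is the −log10 q-value scaled to a whole number and was not used further.

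Starts were the 5′ ends of GENCODE M21 gene records, and loci were split where consecutive member starts were over 250 kb apart. The members, motifs and gene lists were chosen with earlier results of these data known. In full were named all H1, testis-type, Hist3 and Hist4 genes, members without a peak in both replicates, the 2 highest and 2 lowest of the other types in the Hist1 loci, the 3 highest and 3 lowest pairs, and the analysed genes of both further lists. Other members were named where they share a peak with these. Read depth is unknown. Sequences came from the RefSeq copy of GRCm38.p6, and uniqueness was counted by exact match of 50 bases over its C57BL/6J chromosomes and scaffolds, beside every 20th other protein-coding gene. The overlap and uniqueness code was tested on simulated data. The alternatives were windows of 500 bp and 2 kb, summits in the window, q-value and p-value limits, all transcript starts, a reciprocal overlap and each replicate alone. The scripts ran in Python 3.11.15 with Numba 0.67.0, NumPy 2.4.6, pandas 2.3.3 and Matplotlib 3.10.9.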

Additional observations from a re-analysis of the deposited data

How the results depend on the processing

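The count of members with a peak in both replicates stayed between 35 and 41 of 43, and that of pairs with a shared peak between 5 and 6 of 7, over 10 alternatives each. Hist1h2af, Hist1h3a and Hist1h3c dropped out when the summit had to lie within 1 kb, and Hist1h2ac, Hist1h2bc, Hist1h2af and Hist1h3d when the replicates' peaks had to overlap by 50% of both. With the coding start in place of the annotated start, an alternative chosen after seeing the data, Hist1h1d was added, which gave 40. The members' median fold enrichment was 30.1 with 2 kb on each side and lay between 26.3 and 29.2 with a replicate left out. Testis-type genes with a peak numbered 1 with 2 kb, and 0 to 1 with a replicate left out, Hist1h1t in both cases. With 2 kb, its replicate 1 peak was that of the neighbouring Hist1h4c, at 23.6.

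Over all protein-coding genes, the share with a peak was 65% with 500 bp, 69.2% with 2 kb, 63.8% with the summit in the window, 61.6% with a q-value limit of 1e-10, 66.4% with a p-value limit of 0.00001, 70.1% with all transcript starts, 65.1% with the reciprocal overlap and 67.8% to 67.9% with 1 replicate. Their median fold enrichment was 24.7 with 500 bp, 24.0 with 2 kb, 25.7 with the q-value limit, 24.6 with all transcript starts, 24.7 with the reciprocal overlap and 23.9 to 24.1 with 1 replicate. The cause was not tested. No paired analysis was possible because there is 1 group of samples.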
